A study of Mus musculus with 14 samples.

Results

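The genes described here are 8 of the pore subunits of voltage-gated calcium channels in the count table of hippocampal parvalbumin (PV) neurons. The list is Cacna1a (P/Q-type), Cacna1b (N-type), Cacna1e (R-type), Cacna1c and Cacna1d (L-type), and Cacna1g, Cacna1h and Cacna1i (T-type). They were chosen by name as a family, though with earlier results of these data known. They are 8 of the 39017 genes counted and of the 21298 genes that passed the filter on low counts. All 8 passed it. Male mice of C57BL/6 background, 8 to 12 weeks old at the start, carried a Cre-dependent EGFP-L10a transgene and PV-Cre (EGFP-L10a+; PV-Cre+), in every group including the controls. Ribosomes that carry the tagged L10a protein were purified from the hippocampi of a single mouse per sample (translating ribosome affinity purification, TRAP) in 4 non-defeated mice, and after 10 days of chronic social defeat stress (CSDS) in 4 resilient mice (social interaction ratio over 1) and 3 susceptible mice (ratio under 1). The input group is total RNA taken before the purification from 3 non-defeated homogenates. PV-Cre acts in every cell that expresses parvalbumin, so the tag is not limited to 1 class of PV neuron or to the hippocampus.

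Each of these genes encodes the whole calcium-conducting pore of a channel, a chain of homologous repeats that opens when the membrane is depolarized. P/Q-, N- and R-type channels sit largely at nerve terminals, where calcium entry triggers transmitter release, and fast-spiking PV neurons are known for release that depends mainly on the P/Q type. L-type channels couple activity to gene expression and to calcium-dependent conductances in the cell body and dendrites, and T-type channels open near the resting potential and support burst firing, for which neurons of the thalamus are best known.

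The types differ in the pore itself, which is why a stretch of it is shown. Each of the 4 repeats contributes 1 acidic residue to the ring that selects calcium. In the longest coding transcript of each gene, the codon at that position encoded glutamate in all 4 repeats in 5 of the 8 genes, those of the P/Q, N, R and L types. In the 3 T-type genes, 2 repeats held a glutamate codon and 2 held an aspartate codon. Of the 2 repeats where the types part, the third repeat is printed below. It is taken from the GENCODE transcripts of GRCm38 (mm10) as 30 coding bases, 5′ to 3′, with the codon of the acidic residue in capitals.
Cacna1a: acagtgtccacaggaGAGggctggccacag
Cacna1b: acagtgtccacgggaGAGgggtggcccatg
Cacna1e: acagtctctacagggGAAggatggcctcag
Cacna1c: accgtctccaccttcGAAgggtggccagag
Cacna1d: acagtctcaacttttGAGggctggcccgcg
Cacna1g: gtgctggcctccaagGATggctgggttgac
Cacna1h: gtgctgtcatccaagGATggctgggtaaac
Cacna1i: gtcttggcctccaagGATggctgggtgaac
The stretches of the T-type genes lie within 1 exon, at chr11:94426459-94426488 (minus strand) for Cacna1g, chr17:25383496-25383525 (minus strand) for Cacna1h and chr15:80376792-80376821 (plus strand) for Cacna1i. Those of the other genes cross an exon junction, so their coordinates take in an intron. They span chr8:84581323-84583559 (plus strand) for Cacna1a, chr2:24650628-24651109 (minus strand) for Cacna1b and chr1:154444002-154444900 (minus strand) for Cacna1e. For the L-type genes they span chr6:118654455-118656141 for Cacna1c and chr14:30099243-30100725 for Cacna1d, both on the minus strand.

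Library totals were between 64110214 and 94726962 counts on genes, and the pore genes took between 38 and 2446 counts each in a TRAP library. Levels are counts scaled to library size after TMM normalization (CPM), and tests are edgeR's quasi-likelihood test on all 14 libraries, with p-values adjusted over the 21298 genes. The list of 7 PV interneuron markers holds Pvalb, Kcnc1, Syt2 and Erbb4, and Gad1, Gad2 and Slc32a1, which mark GABAergic neurons in general. Against input, all 7 were higher in non-defeated TRAP, at a median log2 fold change of 2.86, with Pvalb at 5.85. All 5 excitatory markers were lower, at a median of -1.69. Of the 5 markers of other interneurons, Npy (2.79) and Sst (1.61) were also higher, and Vip, Cck and Lamp5 were lower (-2.29, -0.82 and -0.81), and both interneuron lists hold genes that were enriched. RNA of the excitatory markers remained, with a summed level of 591 to 1133 CPM in TRAP and 1889 to 2210 in input. The 6 thalamic markers summed to over 200 CPM in input 14 (344), non-defeated 9 (332), non-defeated 11 (204) and resilient 7 (591), to 127 in susceptible 10, and to between 31.0 and 93.3 in the other libraries. Markers of the thalamic reticular nucleus, which holds PV neurons, summed to 152, 223 and 274 CPM in non-defeated 9, non-defeated 11 and resilient 7, and to between 4.85 and 54.3 elsewhere. These libraries stand apart from their groups, so several results of the T-type genes, and of others that move with them, are given with and without them. The remaining results rest on all libraries. In bulk TRAP RNA, fewer cells of a type and less RNA per cell cannot be told apart.

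**Figure D1:**
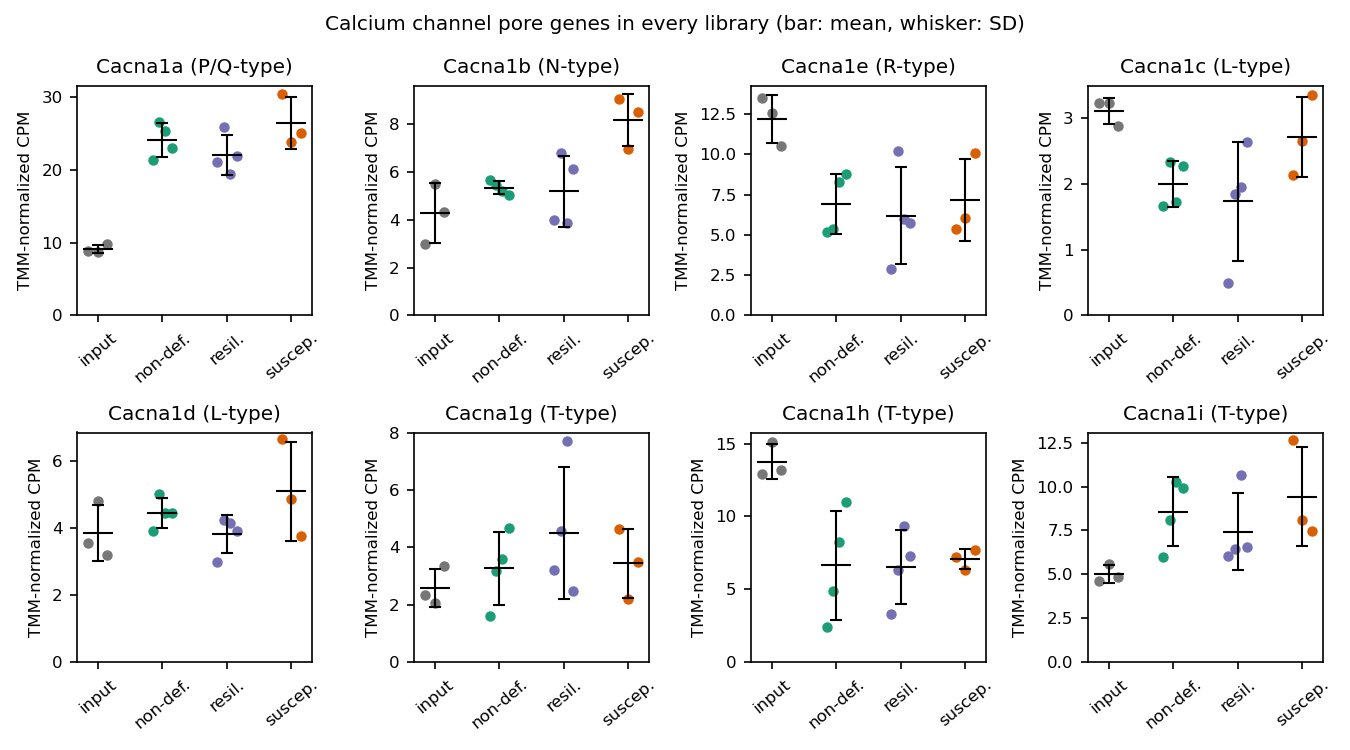
TMM-normalized CPM (y axis, from 0) of each pore gene in the 3 input and the 4 non-defeated, 4 resilient and 3 susceptible TRAP libraries (x axis); points are libraries, horizontal bars the mean and whiskers the SD. Cacna1a is between 8.71 and 9.84 CPM in input and between 19.4 and 30.4 in TRAP, Cacna1h is higher in input than in any TRAP library, and Cacna1b is highest in the susceptible libraries.

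TRAP of non-defeated mice was first set against input, which asks which pore genes take a higher or lower share of the RNA on tagged ribosomes than of the whole homogenate. Of the 8 genes, 4 passed an adjusted p of 0.05, 2 of them higher (Cacna1a and Cacna1i) and 2 lower (Cacna1e and Cacna1h). Of all genes tested, 55% passed, 27.4% as higher and 27.6% as lower, so a count of this size is near the background. The median log2 fold change of the 8 genes was 0.27, and that of all genes -0.04. How many of all genes had no overlap between these groups was not counted. A gap between the ranges of a gene is therefore given below as a description only. The P/Q type and a T-type gene thus stood above the input level, and the R type and another T-type gene below it. Genes with at least 8 kb of exon had a median log2 deviation from their TRAP mean of 0.314 to 0.344 in input libraries. In TRAP libraries it was -0.165 to 0.128. All 8 pore genes are this long, with 9763 to 25228 bases. Alternative fits with all libraries of both groups, including an offset for gene length, gave 1.37 to 1.70 for Cacna1a and 0.745 to 1.06 for Cacna1i. They gave -0.85 to -0.62 for Cacna1e and -1.08 to -0.78 for Cacna1h.

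Cacna1a (ENSMUSG00000034656; chromosome 8, 84388440 to 84640246, plus strand) encodes the P/Q-type pore. It had 8.88, 8.71 and 9.84 CPM in input and 21.4, 26.5, 25.4 and 23.1 in the non-defeated TRAP libraries 1, 6, 9 and 11. Every TRAP library of this gene, also after defeat, was above every input library. In resilient mice 3, 5, 7 and 8 it had 21.1, 26.0, 19.4 and 21.9 CPM, and in susceptible mice 2, 4 and 10 it had 30.4, 23.8 and 25.1. The change from input to non-defeated TRAP was 2.64-fold (log2 1.40, SE 0.126, 95% interval 1.13 to 1.67, edgeR adjusted p = 5.13e-07), at place 872 among the genes tested by p-value. The exact permutation test, 2-sided, gave p = 0.0286, the smallest that 4 against 3 libraries allow. The call held with every library left out in turn, with log2 fold changes of 1.35 to 1.45. Cacna1a shares 435 of its 11418 exon bases with Gm16183 on the opposite strand, and the library kit does not keep strand.

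Cacna1b (ENSMUSG00000004113; chromosome 2, 24603887 to 24763152, minus strand) encodes the N-type pore, which in the hippocampus is best known from the terminals of other interneurons and of excitatory cells. It had 3.002, 5.49 and 4.30 CPM in input and 5.67, 5.47, 5.18 and 5.04 in non-defeated libraries 1, 6, 9 and 11. Input varied more than non-defeated TRAP, and the ranges overlapped. It had 3.99, 6.77, 3.87 and 6.09 CPM in resilient mice 3, 5, 7 and 8, and 9.06, 6.93 and 8.50 in susceptible mice 2, 4 and 10. Against input its log2 fold change was 0.33 (SE 0.225, 95% interval -0.16 to 0.81, edgeR adjusted p = 0.234). With an offset that removes a trend with gene length, it was 0.64 with an adjusted p of 0.0219, the lowest of a range up to 0.282 over the fits that kept all libraries of both groups.

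Cacna1e (ENSMUSG00000004110; chromosome 1, 154390731 to 154884501, minus strand) encodes the R-type pore, found in spines and terminals of excitatory neurons among others. It had 13.5, 12.6 and 10.5 CPM in input and 5.20, 5.40, 8.32 and 8.76 in non-defeated libraries 1, 6, 9 and 11. Every non-defeated library was below every input library. In resilient mice 3, 5, 7 and 8 it had 2.89, 10.2, 5.96 and 5.73 CPM, and in susceptible mice 2, 4 and 10 it had 5.40, 6.05 and 10.1. Against input it fell by 0.82 on the log2 scale (SE 0.333, edgeR adjusted p = 0.0491), close to the threshold. The adjusted p rose to between 0.0627 and 0.128 without input 12, input 13, input 14, non-defeated 1 or non-defeated 6. Without the libraries over 200 CPM of thalamic markers the log2 fold change was -1.31 (adjusted p = 0.0382).

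Neither L-type gene of the 8 passed the test against input. Cacna1c (ENSMUSG00000051331; chromosome 6, 118587240 to 119196418, minus strand), the L-type pore of heart and of most neuronal cell bodies, had 3.24, 3.23 and 2.89 CPM in input and 1.67, 2.33, 1.73 and 2.27 in non-defeated libraries 1, 6, 9 and 11. The groups did not overlap, with a log2 fold change of -0.64 (SE 0.368, 95% interval -1.43 to 0.15, edgeR adjusted p = 0.157) and an exact permutation p of 0.0286, 2-sided. A fit of these 7 libraries alone called it (edgeR adjusted p = 0.0134), as did DESeq2 on them (adjusted p = 0.00562), and the other fits with all libraries of both groups gave up to 0.312. It had 0.488, 1.85, 1.96 and 2.65 CPM in resilient mice 3, 5, 7 and 8 and 2.14, 2.65 and 3.35 in susceptible mice 2, 4 and 10. The library of resilient mouse 3, with 38 counts of Cacna1c, was the lowest of all.

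Cacna1d (ENSMUSG00000015968; chromosome 14, 30039939 to 30491455, minus strand) encodes the L-type pore that opens at lower voltages. It had 3.55, 4.80 and 3.204 CPM in input and 3.92, 5.01, 4.46 and 4.45 in non-defeated libraries 1, 6, 9 and 11. The ranges overlapped, and the log2 fold change was 0.21 (SE 0.206, 95% interval -0.23 to 0.65, edgeR adjusted p = 0.400). It had 2.99, 4.26, 4.16 and 3.91 CPM in resilient mice 3, 5, 7 and 8 and 6.68, 4.86 and 3.76 in susceptible mice 2, 4 and 10. Of its 12621 exon bases, 589 are shared with Chdh on the opposite strand.

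A pair of the T-type genes changed in opposite directions. Cacna1h (ENSMUSG00000024112; chromosome 17, 25374285 to 25433783, minus strand) had 12.9, 15.1 and 13.2 CPM in input and 2.41, 4.90, 8.26 and 10.99 in non-defeated libraries 1, 6, 9 and 11. Every input library was above every TRAP library of any group, since it had 3.26, 6.29, 9.36 and 7.28 CPM in resilient mice 3, 5, 7 and 8 and 7.21, 6.31 and 7.66 in susceptible mice 2, 4 and 10. Against input Cacna1h fell by 1.05 on the log2 scale (SE 0.390, 95% interval -1.89 to -0.22, edgeR adjusted p = 0.0336). Within the non-defeated group the highest levels were those of libraries 9 and 11, the ones with the thalamic markers. Without the libraries over 200 CPM of those markers it fell by 1.94 (adjusted p = 0.00194). The adjusted p was between 0.0567 and 0.0908 without input 12, input 13, input 14, non-defeated 1 or non-defeated 6, 0.0757 with the offset for gene length and 0.0803 by DESeq2 on these groups, and the lowest over the fits with all libraries of both groups was 0.0169. Of its 9763 exon bases, 158 are shared with Tpsg1 on the opposite strand.

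Cacna1i (ENSMUSG00000022416; chromosome 15, 80287238 to 80398279, plus strand), a T-type pore known from the thalamic reticular nucleus and other GABAergic cells, had 4.62, 5.56 and 4.87 CPM in input and 5.97, 8.11, 10.3 and 9.92 in non-defeated libraries 1, 6, 9 and 11. No non-defeated library was as low as the highest input library. It had 6.02, 6.46, 10.7 and 6.58 CPM in resilient mice 3, 5, 7 and 8 and 12.7, 8.12 and 7.48 in susceptible mice 2, 4 and 10. Against input it was 1.71-fold higher (log2 0.77, SE 0.246, edgeR adjusted p = 0.0159). Without the libraries over 200 CPM of thalamic markers the log2 fold change was 0.46 (adjusted p = 0.170), and without those over 100 CPM it was 0.48 (adjusted p = 0.120). Without input 12 or input 14 the adjusted p was 0.0591 and 0.0506.

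Cacna1g (ENSMUSG00000020866; chromosome 11, 94408391 to 94474198, minus strand), the T-type pore of thalamic relay neurons, had 2.35, 2.07 and 3.34 CPM in input and 1.62, 3.18, 3.61 and 4.67 in non-defeated libraries 1, 6, 9 and 11. The ranges overlapped, and the log2 fold change was 0.34 (SE 0.399, 95% interval -0.52 to 1.19, edgeR adjusted p = 0.493). It had 3.21, 4.57, 7.71 and 2.48 CPM in resilient mice 3, 5, 7 and 8 and 4.63, 2.21 and 3.50 in susceptible mice 2, 4 and 10. The highest value of any library was that of resilient 7, which also had the most thalamic marker RNA.

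**Figure D2:**
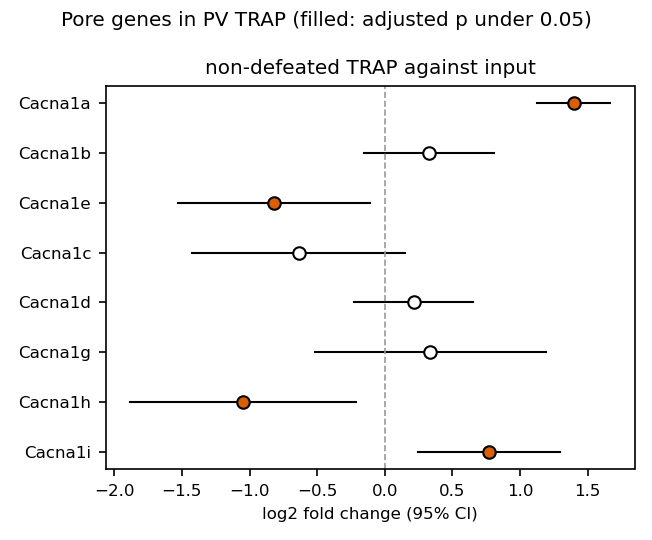
Log2 fold change of each pore gene in TRAP of non-defeated mice (n = 4) against input (n = 3), with 95% intervals from edgeR; filled points have an adjusted p under 0.05. Cacna1a at 1.40 and Cacna1i at 0.77 lie above 0, Cacna1e at -0.82 and Cacna1h at -1.05 below it, and the intervals of the other 4 genes include 0.

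Across the 11 TRAP libraries the widest range was that of Cacna1c, 6.87-fold from 0.488 CPM in resilient 3 to 3.35 in susceptible 10. Cacna1g spanned 4.77-fold (1.62 to 7.71 CPM), Cacna1h 4.55-fold (2.41 to 10.99) and Cacna1e 3.52-fold. Cacna1b (2.34-fold), Cacna1d (2.23-fold) and Cacna1i (2.13-fold) varied less, and Cacna1a least (1.57-fold). The 3 TRAP libraries over 200 CPM of thalamic markers had 8.26 to 10.99 CPM of Cacna1h, above the 2.41 to 7.66 of the other 8. For Cacna1i they had 9.92 to 10.7 CPM, and the other 8 had 5.97 to 12.7, with susceptible 2 the only one of them above 9.92. Cacna1g overlapped, with 3.61 to 7.71 against 1.62 to 4.63 CPM. For the remaining genes the 3 libraries lay within the range of the others or, for Cacna1a and Cacna1b, reached slightly below it. The part of thalamic RNA in these levels was not tested.

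**Figure D3:**
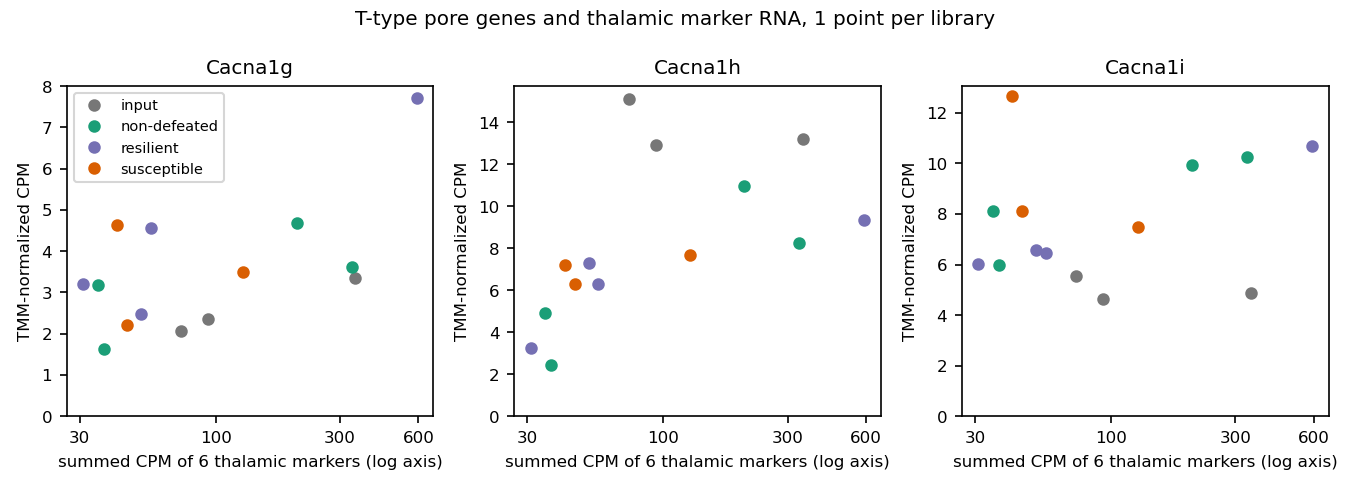
TMM-normalized CPM (y axis) of the T-type genes against the summed CPM of 6 thalamic markers (x axis, log scale), 1 point per library, colored by group. The 3 TRAP points right of 200 CPM lie at 8.26 to 10.99 CPM for Cacna1h and at 9.92 to 10.7 for Cacna1i, while input 14, also right of 200, lies between the other input points for both genes, at 13.2 and 4.87.

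Levels of different genes were compared per kilobase of exon (RPKM). In non-defeated TRAP, Cacna1a came first with 2.11 ± 0.202 RPKM (SD, n = 4), followed by Cacna1i (0.869 ± 0.2001), Cacna1h (0.680 ± 0.385), Cacna1b (0.537 ± 0.0287), Cacna1d (0.353 ± 0.0353), Cacna1g (0.323 ± 0.125), Cacna1e (0.274 ± 0.0745) and Cacna1c (0.0945 ± 0.0164). The libraries of Cacna1a did not overlap those of the next gene in any TRAP group. Among the neighbours below it in non-defeated mice, Cacna1b and Cacna1d and then Cacna1e and Cacna1c were separate, and the other neighbours overlapped. Without libraries 9 and 11, rich in thalamic markers, Cacna1h was at 0.375 ± 0.180 RPKM (SD, n = 2), after Cacna1b at 0.560 ± 0.0149 and no longer before it, Cacna1i was at 0.714 ± 0.154 and Cacna1a, still first, at 2.10. In input the order began with Cacna1h at 1.41 ± 0.123 RPKM (SD, n = 3), then Cacna1a at 0.801 ± 0.0532, which did not overlap it. Cacna1c was the lowest in all 4 groups on this scale. Exon length reaches far beyond the longest coding sequence for Cacna1e (25228 and 6819 bases) and Cacna1c (21191 and 6666 bases). Per kilobase of coding sequence, Cacna1a remained first in each TRAP group with no overlap, Cacna1e moved from the seventh to the third place in non-defeated TRAP, and in input Cacna1g was the lowest.

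The same values gave the makeup of these 8 genes by channel type, as shares of their summed RPKM. Cacna1s, an L-type gene outside the list, is not in these shares. The P/Q type made up 18.5% ± 1.96 (SD, n = 3) in input and 40.8% ± 5.54 (n = 4), 39.7% ± 6.95 (n = 4) and 38.8% ± 1.03 (n = 3) in non-defeated, resilient and susceptible TRAP. The T types together made up 50.1% ± 0.672 in input, and 34.8% ± 8.29, 37.2% ± 8.92 and 33.6% ± 2.03 in those groups. The T-type share was 25.0% and 31.3% in non-defeated 1 and 6 and 39.0% and 43.7% in non-defeated 9 and 11, the ones with thalamic markers, and it was highest in resilient 7, at 50.5%. Without the libraries over 200 CPM of those markers it was 28.1% ± 4.48 (n = 2) in non-defeated and 32.8% ± 1.29 (n = 3) in resilient TRAP, and the P/Q-type share was 45.3% ± 1.30 and 42.7% ± 4.22. In input, without input 14, these shares were 49.7% and 17.7% (n = 2). The N type took 9.79% ± 2.23 in input and 10.6% ± 2.499 in non-defeated, 10.6% ± 2.58 in resilient and 13.8% ± 0.858 in susceptible TRAP. The R type went from 11.2% ± 1.73 in input to 5.19% ± 0.807 in non-defeated TRAP. With coding length the P/Q share was 16.5% in input and 38.9% in non-defeated TRAP.

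**Figure D4:**
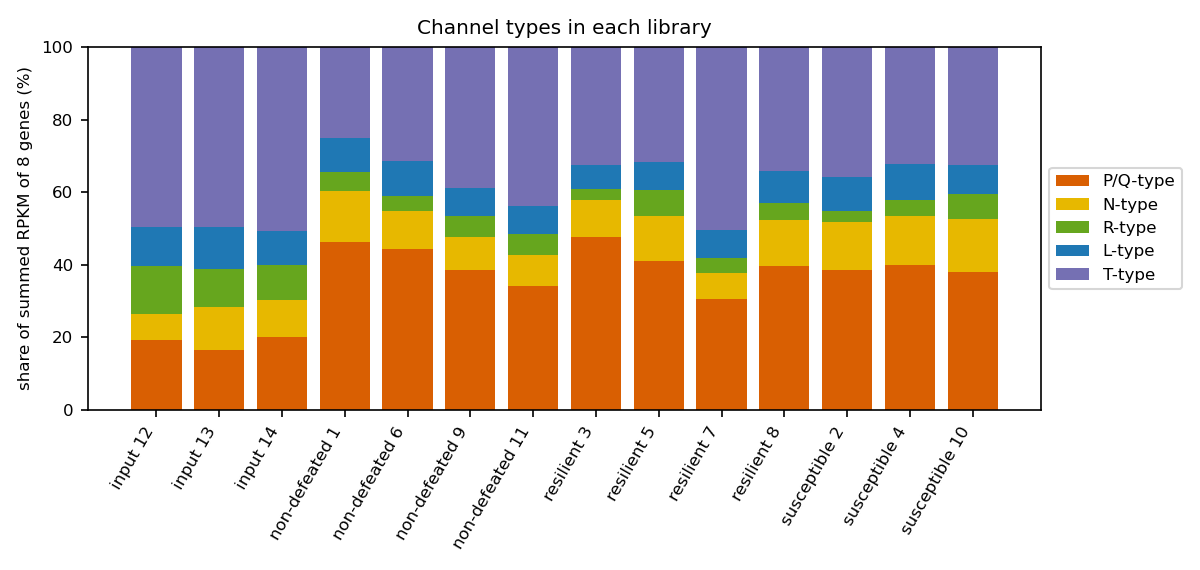
Share of each channel type in the summed RPKM of the 8 pore genes (y axis, percent), 1 stacked bar per library. The P/Q-type share is 16.4% to 20.1% in the input bars and 30.7% to 47.5% in the TRAP bars, and the T-type share is 49.7% to 50.8% in input and between 25.0% and 50.5% in TRAP.

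The remaining L-type pore genes, known from retina and skeletal muscle, were also counted. Cacna1f had 0 to 21 counts in a library and did not pass the filter. Cacna1s had 31 to 90 counts in input and 159 to 676 in TRAP, with a log2 fold change of 2.98 in non-defeated TRAP against input (SE 0.481, edgeR adjusted p = 1.15e-04). Its exons share 1309 of 6550 bases with Gm37759 on the opposite strand, and reads of the pair cannot be told apart without strand.

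Pores work with auxiliary subunits, and those of this list moved in both directions between input and non-defeated TRAP. Of all genes tested, 27.4% passed an adjusted p of 0.05 as higher and 27.6% as lower. Of the 4 beta subunits, which bring the pore to the membrane, 1 was higher and 3 were lower. Cacnb4 had 298 ± 18.8 CPM in TRAP and 169 ± 11.6 in input (log2 0.82), and Cacnb1, Cacnb2 and Cacnb3 had log2 fold changes of -1.26, -1.50 and -1.30. Of the 4 alpha2-delta subunits, extracellular proteins that raise channel number at the surface, 1 was higher and 2 were lower. Cacna2d2 had 20.8 ± 3.104 CPM in TRAP and 6.94 ± 2.27 in input (log2 1.58), while Cacna2d1 and Cacna2d3 had -1.50 and -1.15. The median log2 fold change was -1.28 for the beta and -1.09 for the alpha2-delta subunits.

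Of 16 scaffolds and regulators that bind the channels, 5 were higher and 3 lower, with a median of 0.11. Since 55% of all genes passed, the counts of this list and of the lists that follow are near or below the background. The higher ones by smallest p were Cabp1, a calmodulin-like regulator (1.18), Stac2, which slows L-type inactivation (1.89), and Bsn, the active zone scaffold bassoon (1.77). The lower ones were Erc2, an active zone protein (-1.001), Rem2, a small GTPase that inhibits the channels (-0.99), and Rimbp2, which links them to release sites (-1.01). Of 4 calcium-activated potassium channels, which read the calcium that enters, Kcnn2 and Kcnn3 of the SK type were lower (-0.69 and -1.23) and the other 2 did not pass. Of 14 genes of calcium stores and extrusion, Ryr2, a release channel (0.82), and Atp2b2, a plasma membrane calcium pump (0.42), were higher, Atp2b4, another pump (-0.81), and Slc8a2, a sodium-calcium exchanger (-0.86), were lower, and 10 did not pass.

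The defeated groups were then compared with non-defeated mice and with each other, which asks whether pore gene RNA on tagged ribosomes differs with the behavioral outcome of CSDS. No pore gene passed an adjusted p of 0.05 in any of the 3 comparisons. The 24 adjusted p-values were 0.117 or more. The comparisons share groups, so they are not independent of each other.

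In resilient against non-defeated mice, 0 of 8 genes passed, as did 0% of all genes tested, and at an unadjusted p of 0.05 0 of 8 passed against 4.38% of all genes. The log2 fold changes ran from -0.22 for Cacna1d to 0.46 for Cacna1g (95% interval -0.32 to 1.24), and all groups overlapped. Their median was -0.14, and that of all genes 0.00. For Cacna1a the difference was -0.12 (95% interval -0.36 to 0.11). For Cacna1h it was -0.02 with all libraries and 0.63 (adjusted p = 0.652) without those over 200 CPM of thalamic markers, and for Cacna1e -0.16 and 0.26 (adjusted p = 0.881). Within libraries numbered 1 to 6 and 7 to 11 the log2 ratio of the means was 0.30 and -0.55 for Cacna1e. It was 0.385 and -0.21 for Cacna1h and -0.77 and 0.20 for Cacna1c, and the other genes kept their direction.

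In susceptible against non-defeated mice, 0 of 8 genes passed the adjusted threshold, against 0.0376% of all genes, and 1 of 8 passed unadjusted, against 13.3% of all genes. The gene was Cacna1b. Its 3 susceptible libraries, at 6.93 to 9.06 CPM, were all above the 4 non-defeated libraries, at 5.04 to 5.67, a separation seen in 4.21% of all genes tested. The means were 8.16 ± 1.10 (SD, n = 3) and 5.34 ± 0.285 CPM (SD, n = 4), a log2 fold change of 0.61 (SE 0.221, 95% interval 0.14 to 1.08, edgeR p = 0.0147, adjusted p = 0.277, exact permutation p = 0.0286, 2-sided and the smallest possible). DESeq2 on these 7 libraries gave an adjusted p of 0.0322, the other fits with all libraries of both groups gave up to 0.506, and leaving out 1 library gave 0.189 to 0.548. Within libraries numbered 1 to 6 the log2 ratio of the means was 0.52 (n = 2 and 2), and within those numbered 7 to 11 it was 0.73 (n = 1 and 2). Without the libraries over 200 CPM of thalamic markers the log2 fold change was 0.56 (adjusted p = 0.884), with 2 non-defeated libraries left.

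Sums of other markers are given beside the level of Cacna1b. The 5 markers of other interneurons summed to 467 to 853 CPM in susceptible, 397 to 611 in non-defeated and 392 to 774 in resilient TRAP. These ranges overlapped, and susceptible 10, at 467, lay within the non-defeated range. The 3 endothelial markers summed to 6.61 to 10.6 CPM in susceptible, 2.16 to 4.35 in non-defeated and 3.37 to 14.9 in resilient TRAP, with 1 of them at 0 in 1 non-defeated library. The 7 markers of the PV list, general GABAergic genes among them, summed to 3147 to 4373 CPM in susceptible and 3801 to 4174 in non-defeated TRAP. The part of these cells in the level of Cacna1b was not tested.

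The other 7 genes overlapped between susceptible and non-defeated mice, with log2 fold changes between 0.05 for Cacna1e and 0.44 for Cacna1c (95% interval -0.35 to 1.23). The median of all 8 was 0.14, and that of all genes 0.01. Intervals were narrow only for Cacna1a (-0.12 to 0.39), and those of the T-type genes reached from -0.77 to 0.92 for Cacna1g, from -0.75 to 0.93 for Cacna1h and from -0.38 to 0.65 for Cacna1i. Within libraries numbered 1 to 6 and 7 to 11 the log2 ratio of the means was 0.89 and -0.33 for Cacna1h and 0.56 and -0.43 for Cacna1i. For Cacna1g it was 0.51 and -0.24, and for Cacna1d 0.37 and -0.24. Cacna1a, Cacna1c and Cacna1e kept their direction. For these genes the fits without the libraries rich in thalamic markers are not given here. Susceptible 2 held the highest level of any library for Cacna1a, Cacna1b, Cacna1d and Cacna1i.

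In susceptible against resilient mice, 0 of 8 genes passed the adjusted threshold, against 1.89% of all genes, and 2 of 8 passed unadjusted, against 20.9%. Cacna1b was higher in each susceptible library than in the 3.87 to 6.77 CPM of the resilient ones, a separation seen in 7.71% of all genes. Its log2 fold change was 0.66 (SE 0.221, 95% interval 0.18 to 1.13, edgeR p = 0.00984, adjusted p = 0.117, exact permutation p = 0.0571, 2-sided). Within numbers 1 to 6 and 7 to 11 the log2 ratio of the means was 0.57 (n = 2 and 2) and 0.77 (n = 1 and 2). Cacna1a overlapped between the groups, with a log2 fold change of 0.26 (SE 0.120, edgeR p = 0.0485, adjusted p = 0.235, exact permutation p = 0.143, 2-sided) and 0.21 and 0.28 within the same numbers. Cacna1d, Cacna1e, Cacna1h and Cacna1i changed direction between those numbers, and Cacna1c and Cacna1g did not. The lowest value was that of Cacna1g, -0.38 (95% interval -1.23 to 0.46), which was 0.00113 without the libraries over 200 CPM of thalamic markers, resilient 7 among them.

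**Figure D5:**
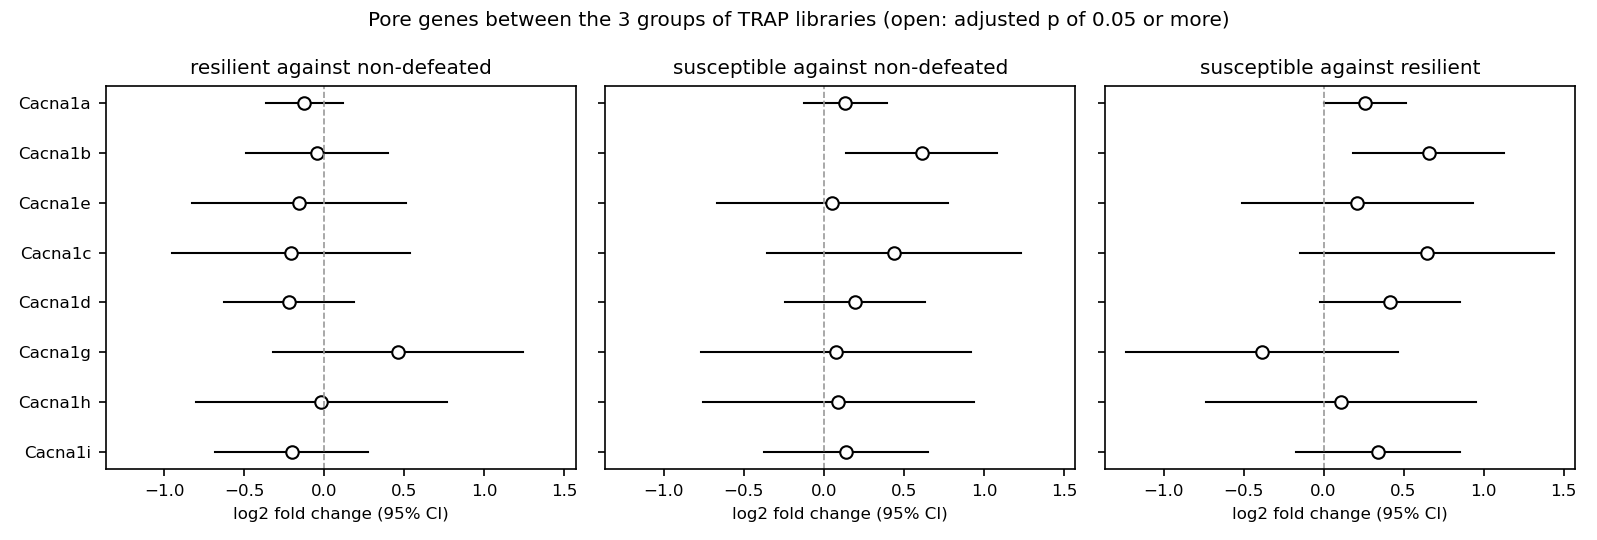
Log2 fold change of each pore gene, with 95% intervals from edgeR, in resilient (n = 4) against non-defeated (n = 4), susceptible (n = 3) against non-defeated, and susceptible against resilient TRAP libraries; open points have an adjusted p of 0.05 or more, which is all of them. Cacna1b lies at 0.61 and 0.66 in the comparisons of susceptible mice, with intervals above 0, and at -0.04 between resilient and non-defeated mice.

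None of the 4 beta, 4 alpha2-delta, 16 scaffold and regulator, 4 calcium-activated potassium channel and 14 store and extrusion genes passed an adjusted p of 0.05 in the 3 stress comparisons. Of all genes, 0% passed in resilient and 0.0376% in susceptible against non-defeated mice, and 1.89% in susceptible against resilient mice. Their median log2 fold changes in susceptible against non-defeated mice were -0.12, -0.12, 0.03, -0.02 and 0.02 in that order.

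The genes whose level followed each pore gene most closely over the 11 TRAP libraries were found among 12039 genes with a mean of at least 5 CPM, by Pearson's r of log2 CPM. These values describe libraries that share a protocol and differ together in depth and in cell makeup. Cacna1e was followed most closely, by Nedd4l (r = 0.989), a ubiquitin ligase of membrane channels, and Cnksr2 (0.978), a synaptic scaffold. Cacna1b was followed by Grin2b (0.945), an NMDA receptor subunit, and Nap1l1 (0.945), a histone chaperone. Cacna1c was followed by P4ha1 (0.915) and Eef1g (0.913), and Cacna1h by Map3k4 (0.904) and Pi4ka (0.902). For Cacna1a they were Dicer1 (0.894) and Adgrb2 (0.890), for Cacna1d Trim66 (0.893) and Pcdh10 (0.885), for Cacna1i Nrxn3 (0.891) and Akr1b10 (0.840), and for Cacna1g Gfra2 (0.886) and Armh4 (0.867). Of the pore genes, 5 were among the genes searched, and none of these was among the 2 closest of another. The other 3 (Cacna1c, Cacna1d and Cacna1g) had a mean under 5 CPM in TRAP and were not searched.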

How the data were processed

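RNA of 11 TRAP and 3 input libraries was sequenced as single reads of 150 bp from SMART-Seq v4 cDNA and Nextera XT libraries, which do not keep strand. The authors trimmed reads with fastp, aligned them to mm10 with STAR (version 2.5.3a in the submitters' processing notes, another in the study's methods) and deposited raw counts per gene, without normalization. HTSeq is named in those notes, and its annotation is not given in the sources used here. Genes were named, and exon lengths taken, from GENCODE M21 (37607 of 39017 with a symbol).

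The analysis ran in edgeR 4.0.16 under R 4.3.3: TMM, the default filter, 1 quasi-likelihood fit of all 14 libraries, 2-sided tests, and Benjamini-Hochberg adjustment over 21298 genes. CPM is on the TMM scale, and permutation tests and likeness used log2 CPM with a prior count of 2. Groups came from the sample labels. The pore genes, and the gene and marker lists, were chosen with earlier results of these data known. Named genes were every pore gene, for other lists at most 3 called genes per direction by smallest p, and the 2 most alike genes. The test was checked only on counts simulated from its own fitted group means and spreads. That check does not show how it handles libraries that stand apart from their group. No library was a copy of another: chi-square divided by its degrees of freedom was 13.9 for the closest replicates. Alternatives were DESeq2 1.42.0 on 2 groups, the likelihood ratio test in edgeR, RLE size factors, other filters (none, at least 10 counts in every library), a length offset, fewer samples, the sample number as a covariate, and each library left out. Those without libraries rich in thalamic markers (levels and shares included), and coding length, were chosen after seeing the data. No protein sequence was used here.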

Additional observations from a re-analysis of the deposited data

Results flagged for a closer look

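Among the 16 groups of 4 libraries (8 pore genes in non-defeated and resilient mice), 1 held a library far from the others, at a level of the test that chance alone passes in about 1 of 20 groups. Cacna1i was at 10.7 CPM in resilient 7, while the other 3 resilient libraries were between 6.02 and 6.58 CPM. The gap was 0.880 of the range of the group, above Dixon's critical value for 4 samples at the 95% level. The same library had 591 CPM of thalamic markers and 274 CPM of thalamic reticular markers, and their part in this value was not tested.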

How the results depend on the processing

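No paired analysis was run. Every library has its own sample number, so the labels do not show whether an input and a TRAP library came from the same mouse. In the comparison of non-defeated TRAP with input, 1 to 4 pore genes were called with 1 library left out and 3 to 5 under the other alternatives. Between susceptible and non-defeated mice 1 gene (Cacna1b) was called by DESeq2 on the 2 groups, and 0 under every other alternative run for the stress comparisons. Of 568 values of single genes under alternatives, 516 kept their direction and side of the threshold, 32 changed direction, 16 lost and 4 gained a call. No gene called in TRAP against input changed direction. The changes of direction were in genes not called. Between resilient and non-defeated mice Cacna1h was 0.0143 with the length offset and 0.0573 with the sample number as a covariate. Without libraries over 200 CPM of thalamic markers Cacna1b was 0.0295, Cacna1e 0.257 and Cacna1h 0.628 in that comparison and Cacna1g 0.00113 between susceptible and resilient mice, and without those over 100 CPM the values were 0.00992, 0.242, 0.609 and 0.00255, with Cacna1e at -0.132 between susceptible and resilient mice.

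With 1 library left out, log2 fold changes between resilient and non-defeated mice ranged from -0.20 to 0.0733 for Cacna1b, -0.48 to 0.10 for Cacna1c, -0.51 to 0.0777 for Cacna1e and -0.30 to 0.33 for Cacna1h. Between susceptible and non-defeated mice they ranged from -0.0494 to 0.37 for Cacna1d, -0.27 to 0.22 for Cacna1e, -0.20 to 0.31 for Cacna1g, -0.19 to 0.45 for Cacna1h and -0.13 to 0.28 for Cacna1i. Between susceptible and resilient mice they ranged from -0.11 to 0.56 for Cacna1e, -0.66 to 0.00902 for Cacna1g and -0.11 to 0.33 for Cacna1h. The cause of these changes was not tested. Per coding kilobase, Cacna1e had 1.01 in non-defeated TRAP and 0.274 per exon kilobase. In non-defeated TRAP, Cacna1h had 0.680 RPKM and 0.375 without the libraries over 200 CPM of thalamic markers. With 3 or 4 libraries a group, a p that missed the threshold does not show that levels were alike.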
